A study of Mus musculus with 6 samples.

Results

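Solute carriers are the membrane proteins that move nutrients, ions, cofactors and metabolites across the cell surface and between organelles without spending ATP directly, and their numbered families (Slc1, Slc2 and so on) group them by sequence relation. A T cell that has been activated relies on them for glucose, amino acids, phosphate, vitamins and metals, for the exchange of nucleotides and cofactors across the mitochondrial membrane, and for the nucleotide sugars that the Golgi uses to build glycans. The members described here are all rows of a deposited gene table whose symbol begins with Slc, a number and a lower-case letter. There were 40 such genes among 2387 rows.

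The table compared CD4+ cells of SRC2fl/fl/Foxp3YFP-Cre mice (titled KO) with those of Foxp3YFP-Cre mice (titled WT), 3 libraries from different mice in each genotype, taken 36 hours into differentiation toward Tregs with TGFβ and antibodies to IL-4 and IFNγ. Both genotypes carry the YFP-Cre transgene at Foxp3, so Cre is made only where Foxp3 is expressed, and SRC2fl/fl/Foxp3YFP-Cre mice also carry floxed alleles of Ncoa2, the gene for the steroid receptor coactivator SRC2. The starting cells were naive CD4+ T cells purified from spleen, and the methods name no sorting after the culture. The age and sex of the mice are not given in the labels.

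Each row gives 1 mean per genotype, computed by the authors, in CPM, which are read counts scaled to the total of each library, and no value per library. No SD, n or test therefore stands beside the values below, the depth of the libraries is unknown, and no ratio could be set against the spread between mice. Every row of the table had an authors' P value below 0.05 for this same comparison before any adjustment. A difference between the genotypes is thus the condition for being a member and not a result about the members, and a carrier outside the table was counted neither as changed nor as unchanged. The paper also treated a gene as expressed only above a minimum of total counts, and the totals of the rows start at about that limit. Genes low in both genotypes therefore had no row. The 40 members were 10.7% of the 375 protein-coding genes with such a symbol in RefSeq, and they came from 21 of its 51 families. Ncoa2 had 127 CPM in KO cells and 164 CPM in WT cells, and Foxp3 had 42.4 CPM in KO cells and 82.5 CPM in WT cells. In such bulk RNA, fewer cells of a type and less RNA per cell cannot be told apart. Of 8 markers listed for CD4 T cells, Cd28 alone was a row, so the cell type could not be checked further in this table.

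Of the 40 carriers, 34 had the higher mean in KO cells and 6 the lower, beside 69.2% higher and 30.8% lower among all rows. The median log2 ratio of KO to WT was 0.38 for the carriers and 0.33 for all rows. Since the rows as a whole leaned toward KO cells, each count was also taken relative to this median, above which lay 26 of the 40 carriers (65.0%). Past a fold change of 1.5, 9 carriers (22.5%) were higher, against 18.5% of all rows, and 0 were lower, against 10.5% of all rows. Near that limit, Slc25a32 lay just inside with a ratio of 1.503 and Slc66a2 just outside with 1.480. Summed over the 40 genes, the carriers had 1985 CPM in KO cells and 1777 CPM in WT cells, a ratio of 1.12, while the ratio of the sums over all rows was 1.07. The log2 ratios of the carriers ran from -0.53 to 1.76, within the -2.69 to 7.19 of all rows, of which they are a part. The lower and upper quartiles were 0.27 and 0.57 for the carriers and -0.30 and 0.50 for all rows.

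**Figure D1:**
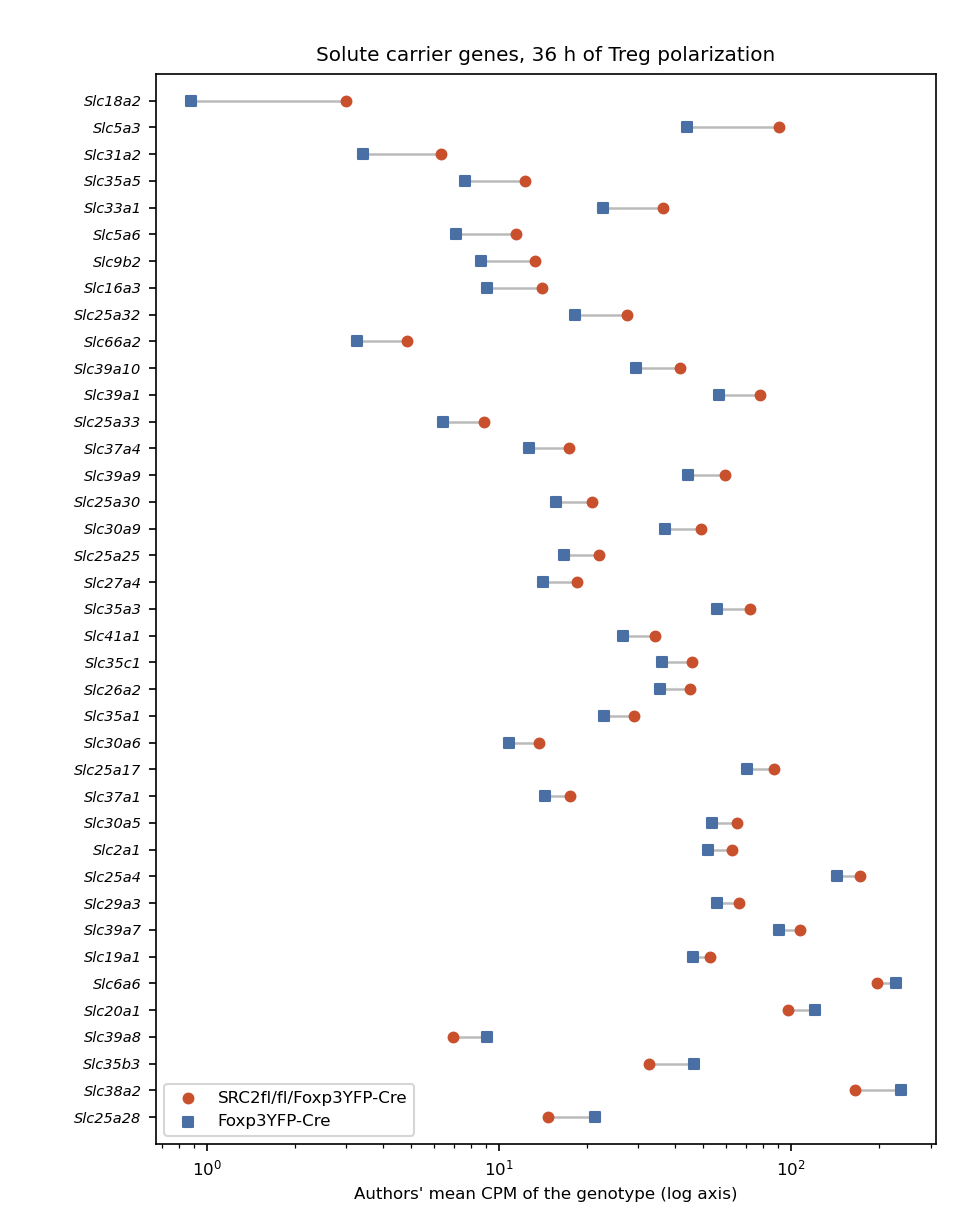
Authors' mean CPM on a log axis for 39 of the 40 solute carrier genes, with a circle for SRC2fl/fl/Foxp3YFP-Cre and a square for Foxp3YFP-Cre, ordered by ratio from highest at the top to lowest at the bottom. The circle lies to the right of the square in the 33 upper genes, and to its left in the 6 lowest, from Slc6a6 down to Slc25a28.

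Length-corrected levels, in CPM per kilobase of merged exons, placed a mitochondrial carrier first. Slc25a4, the ADP/ATP carrier ANT1, had 73.3 CPM per kilobase in KO cells and 60.7 in WT cells. Slc39a7, which releases zinc from the endoplasmic reticulum (ER), came next with 41.6 CPM per kilobase in KO cells and 35.2 in WT cells, followed by the zinc importer Slc39a1 with 33.2 in KO cells and 23.9 in WT cells. GENCODE also annotates a pseudogene of the last, Slc39a1-ps, so the value of Slc39a1 is uncertain. The lowest was Slc18a2 with 0.57 CPM per kilobase in KO cells and 0.17 in WT cells. Across the 40 genes the log2 ratio was lower where the level per kilobase was higher (Spearman's rho = -0.48 across genes, which share the same libraries and are not replicates). Over all rows, with CPM as the level, rho was -0.26, and for the carriers on that scale it was -0.50. The P value filter and the minimum total on the rows can favour larger ratios at low levels. These rho values are therefore not read as a trait of the carriers.

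**Figure D2:**
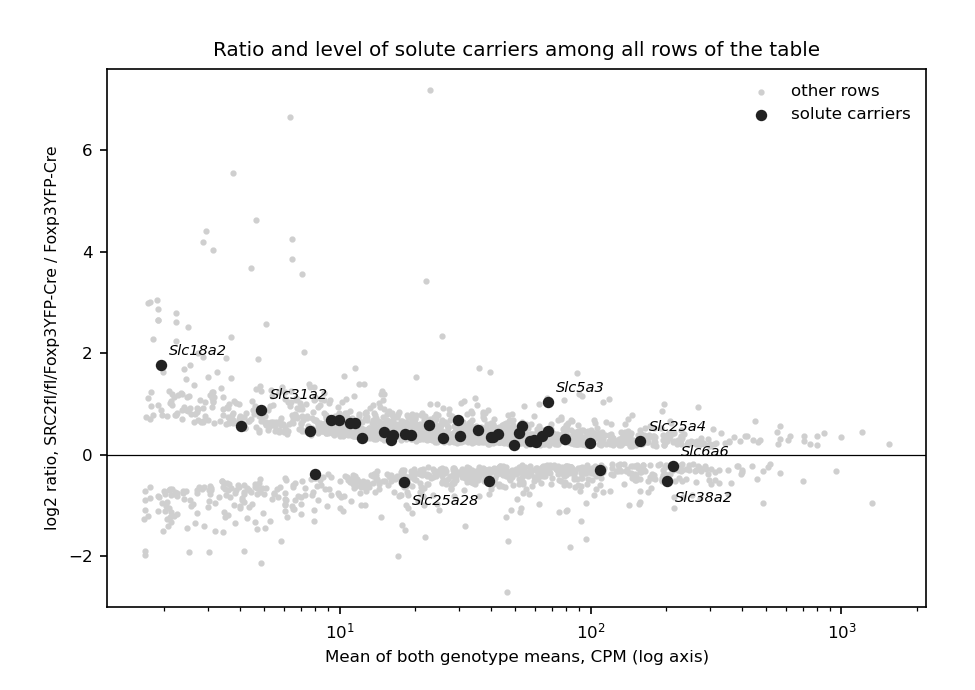
Log2 ratio of SRC2fl/fl/Foxp3YFP-Cre to Foxp3YFP-Cre against the mean of both genotype means in CPM on a log axis, with the 40 solute carriers in black and the other 2347 rows in grey. The carriers lie within the cloud of other rows, with Slc18a2 at 1.76 and Slc5a3 at 1.04 above the rest of them, and no row of the table lies between -0.17 and 0.18.

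Sequences upstream of a few carriers are shown for the 2 members of highest ratio, Slc5a3 and Slc18a2, and for a carrier of each direction that holds an E-box, the phosphate carrier Slc20a1 (lower) and the zinc carrier Slc30a5 (higher). Each is the 250 bases before a RefSeq start on GRCm38.p6, read 5′ to 3′ on the strand of the gene. The window of Slc5a3 is chr16:92058072-92058321 on the plus strand, that of Slc18a2 chr19:59260628-59260877 on the plus strand, that of Slc20a1 chr2:129198523-129198772 on the plus strand and that of Slc30a5 chr13:100833428-100833677 on the minus strand. Capitals mark matches on either strand to the E-box CACGTG, which MYC, USF and TFE proteins can bind, and to the metal response element TGCACNC or TGCGCNC, which the zinc sensor MTF1 can bind.
Slc5a3: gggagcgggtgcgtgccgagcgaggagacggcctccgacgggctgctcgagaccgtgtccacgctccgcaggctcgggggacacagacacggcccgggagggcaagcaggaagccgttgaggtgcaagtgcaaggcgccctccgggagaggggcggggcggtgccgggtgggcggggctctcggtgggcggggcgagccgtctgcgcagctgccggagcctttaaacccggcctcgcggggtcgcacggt
Slc18a2: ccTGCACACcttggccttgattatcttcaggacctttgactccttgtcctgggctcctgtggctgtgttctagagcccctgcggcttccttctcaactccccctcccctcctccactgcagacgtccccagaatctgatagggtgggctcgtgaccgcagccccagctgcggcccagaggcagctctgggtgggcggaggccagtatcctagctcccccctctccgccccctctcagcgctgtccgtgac
Slc20a1: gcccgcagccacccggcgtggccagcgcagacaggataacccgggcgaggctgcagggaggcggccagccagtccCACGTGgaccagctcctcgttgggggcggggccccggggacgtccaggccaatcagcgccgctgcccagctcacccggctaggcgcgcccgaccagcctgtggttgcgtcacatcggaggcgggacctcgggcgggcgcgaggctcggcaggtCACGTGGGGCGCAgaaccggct
Slc30a5: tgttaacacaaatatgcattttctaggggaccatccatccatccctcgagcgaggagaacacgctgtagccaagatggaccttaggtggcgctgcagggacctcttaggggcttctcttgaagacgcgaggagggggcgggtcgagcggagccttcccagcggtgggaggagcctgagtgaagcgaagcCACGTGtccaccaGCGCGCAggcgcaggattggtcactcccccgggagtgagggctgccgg

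In the Slc5a3 window neither motif was found, the Slc18a2 window held 1 metal response element, the Slc20a1 window held 2 E-boxes and 1 metal response element that directly follows the second of them, and the Slc30a5 window held 1 of each motif. Windows of this kind were at hand for 35 of the 40 carriers, 46 windows in all since some genes have several starts. An E-box was present in 6 of these 46 windows, while 6.02% of all 32851 windows of the same length in RefSeq held one, a set that includes those of noncoding genes. The 6 carriers with one were Slc20a1, Slc25a33, Slc30a5, Slc33a1, Slc35a5 and Slc39a8. A metal response element was in 30.4% of the windows of carriers and 21.4% of all windows, and 2 of the 8 zinc carriers with a window had one. GGAAA, the core that NFAT proteins bind, stood in 37.0% of the windows of carriers and 55.6% of all windows. TGATGNAA, a form of the element that ATF4 binds when amino acids are short, was found in 0 of the 46 windows and in 3.45% of all windows. These matches describe letters only, and binding was not measured here.

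Uptake carriers of amino acids and osmolytes went in both directions and included the largest differences in CPM. Slc38a2, a sodium-coupled importer of small neutral amino acids such as alanine and glutamine, had 165 CPM in KO cells and 237 CPM in WT cells, a log2 ratio of -0.52. Slc6a6, the taurine importer, had 197 CPM in KO cells and 229 CPM in WT cells, a log2 ratio of -0.22. These were the only members of their class in the table, and both were lower. Slc5a3, which imports myo-inositol with sodium, had 90.7 CPM in KO cells and 44.1 CPM in WT cells, and its log2 ratio of 1.04 was the highest among carriers above 10 CPM. Inositol, taurine and neutral amino acids are all used by cells as compatible osmolytes, and hypertonic stress is known to raise the RNA of all 3 carriers. Here the inositol carrier was higher while the other 2 were lower. Any part of osmotic stress in these values was not tested. The difference of the means, KO minus WT, was -71.3 CPM for Slc38a2 and 46.5 CPM for Slc5a3. Slc5a3 lies on chromosome 16 of GRCm38 from 92058322 to 92087473 on the plus strand, and 159 bases of its exons (1.46%) are shared with Mrps6, a mitochondrial ribosomal protein gene that starts at the same place. Mrps6 was also a row, with 76.4 CPM in KO cells and 56.7 CPM in WT cells, a log2 ratio of 0.43. The authors counted reads by the Partek E/M method, which assigns ambiguous reads by estimation, so both values are uncertain in their shared part.

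All 4 carriers of sugars, sugar phosphates and inositol were higher, 2 of them above the median of all rows. Slc2a1, the glucose importer GLUT1, had 62.7 CPM in KO cells and 51.9 CPM in WT cells, a log2 ratio of 0.27 that lies below the median of all rows. Slc37a4, which brings glucose 6-phosphate into the ER, had 17.3 CPM in KO cells and 12.7 CPM in WT cells, a log2 ratio of 0.45. Its paralog Slc37a1 had 17.6 CPM in KO cells and 14.4 CPM in WT cells, a log2 ratio of 0.29. Slc16a3, the lactate exporter MCT4, had 14.0 CPM in KO cells and 9.11 CPM in WT cells, a ratio of 1.54. The exporter of lactate thus had the larger ratio and the importer of glucose the higher level, 17.9 CPM per kilobase for Slc2a1 and 2.63 for Slc16a3 in KO cells. No test compared them.

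**Figure D3:**
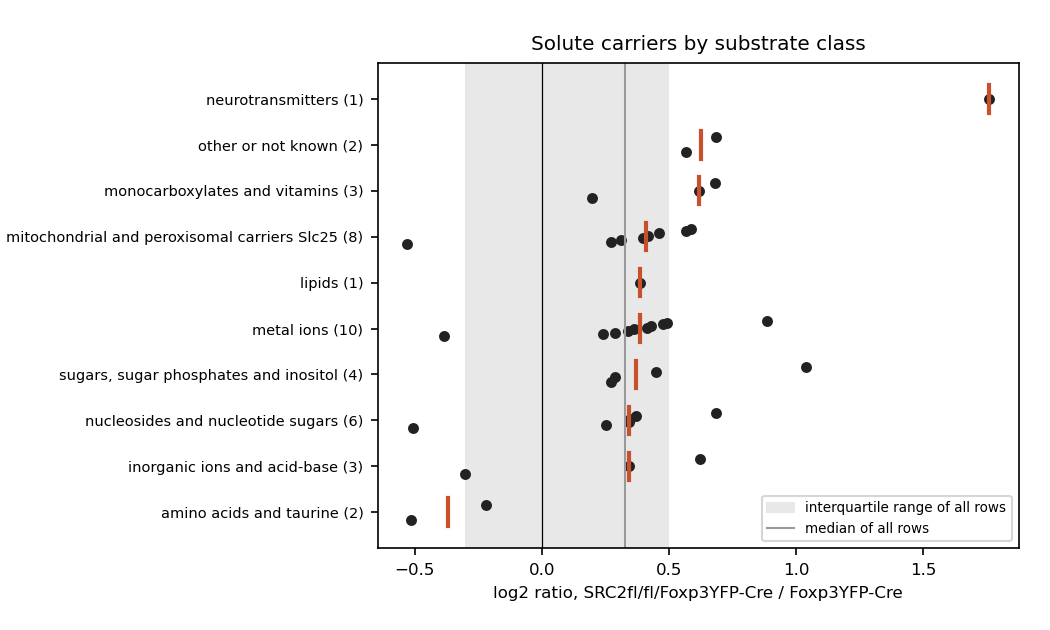
Log2 ratio of SRC2fl/fl/Foxp3YFP-Cre to Foxp3YFP-Cre for each solute carrier (points) by substrate class with the number of genes in brackets, the class median (red bar), and the median and interquartile range of all rows in grey. The 2 carriers of amino acids and taurine both lie below 0, and the medians of metal ion and Slc25 carriers, 0.39 and 0.41, lie just above the 0.33 of all rows.

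Zinc carriers formed the largest group with a shared substrate, and 7 of 8 were higher, 5 of them above the median of all rows. Proteins of family Slc39 move zinc into the cytosol, from outside or from organelles, and those of family Slc30 move it out of the cytosol. Among the Slc39 genes, Slc39a1 at the plasma membrane had 78.5 CPM in KO cells and 56.5 CPM in WT cells, a log2 ratio of 0.47. Slc39a10, another importer at the cell surface, had 41.5 CPM in KO cells and 29.5 CPM in WT cells, a log2 ratio of 0.49. Slc39a9, a zinc carrier of the Golgi and cell surface, had 59.5 CPM in KO cells and 44.2 CPM in WT cells, a log2 ratio of 0.43. Slc39a7 had one of 0.24, with 107 CPM in KO cells and 90.9 CPM in WT cells. The exception was Slc39a8, which also carries manganese and iron, with 6.93 CPM in KO cells and 9.06 CPM in WT cells, a log2 ratio of -0.39. All 3 Slc30 genes were higher. Slc30a5 and Slc30a6 encode partners that load zinc into the secretory pathway. Slc30a5 had 65.2 CPM in KO cells and 53.4 CPM in WT cells, a log2 ratio of 0.29, and Slc30a6 had 13.7 CPM in KO cells and 10.8 CPM in WT cells, a log2 ratio of 0.34. The mitochondrial zinc carrier Slc30a9 had 49.1 CPM in KO cells and 36.9 CPM in WT cells, a log2 ratio of 0.41. The summed level of the 5 Slc39 genes was 294 CPM in KO cells and 230 CPM in WT cells, a ratio of 1.28, and that of the 3 Slc30 genes was 128 CPM in KO cells and 101 CPM in WT cells, a ratio of 1.27. The value of Slc39a7 is uncertain, since 80.7% of its exon bases are also those of Gm20427, a transcript annotated on the same strand.

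**Figure D4:**
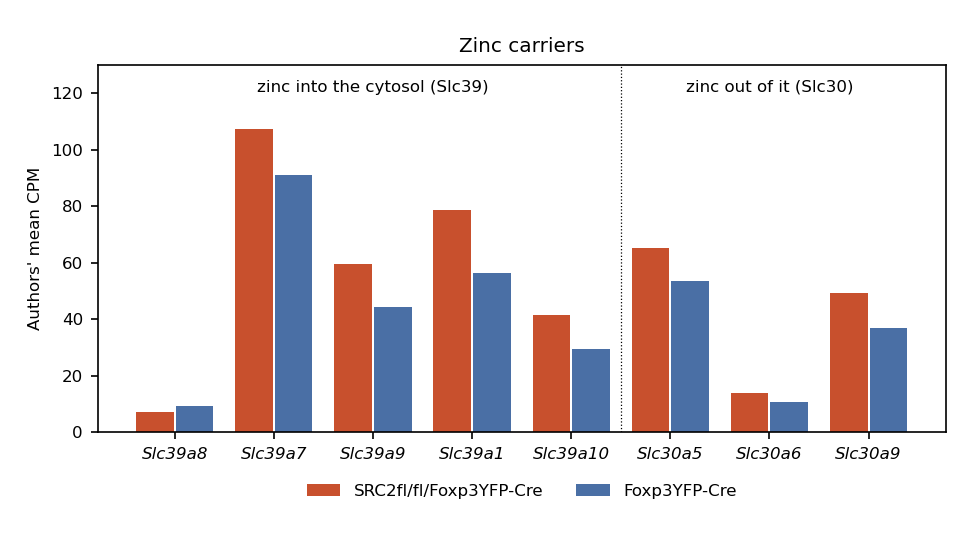
Authors' mean CPM of the 8 zinc carriers, with the bar of SRC2fl/fl/Foxp3YFP-Cre left of that of Foxp3YFP-Cre, the Slc39 genes left of the dotted line and the Slc30 genes right of it. The left bar is the taller in every pair but Slc39a8, where it stands at 6.93 against 9.06 CPM.

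Other metals had few carriers in the table. Slc41a1, a magnesium carrier, had 34.0 CPM in KO cells and 26.5 CPM in WT cells, a log2 ratio of 0.36. Slc31a2, a copper carrier of late endosomes and lysosomes known as CTR2, had 6.33 CPM in KO cells and 3.43 CPM in WT cells, a ratio of 1.85. Besides Slc39a8, iron is carried by the product of Slc25a28, the mitoferrin that brings iron into mitochondria outside the erythroid lineage, which had the lowest log2 ratio of all 40 carriers. It had 14.7 CPM in KO cells and 21.3 CPM in WT cells, a log2 ratio of -0.53.

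Slc25a28 was also the exception in the largest family. Of 8 carriers of family Slc25, which exchange metabolites across the inner mitochondrial membrane and in 1 case the peroxisomal membrane, 7 were higher, with log2 ratios of 0.27 to 0.59, and 5 of these lay above the median of all rows. Slc25a4 had 172 CPM in KO cells and 143 CPM in WT cells, a log2 ratio of 0.27. The highest ratio of the family was that of Slc25a32, which serves folate and FAD in mitochondria, with 27.4 CPM in KO cells and 18.2 CPM in WT cells. Slc25a33, a carrier of pyrimidine nucleotides, had 8.87 CPM in KO cells and 6.44 CPM in WT cells, a log2 ratio of 0.46. Slc25a30 had 20.9 CPM in KO cells and 15.6 CPM in WT cells, a log2 ratio of 0.42. For Slc25a25, an exchanger of ATP-magnesium and phosphate, the means were 21.96 CPM in KO cells and 16.7 CPM in WT cells, a log2 ratio of 0.40. The member of the peroxisomal membrane was Slc25a17, which carries CoA, FAD and NAD, with 87.4 CPM in KO cells and 70.5 CPM in WT cells, a log2 ratio of 0.31. Slc25a25 shares 379 exon bases with Naif1, a gene of the opposite strand that was also a row, with a log2 ratio of 0.45.

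Carriers of vitamins and cofactors cut across the families, and the 4 described here were all higher, 2 of them (Slc5a6 and Slc25a32) above the median of all rows. Besides Slc25a17 and Slc25a32, they were Slc5a6, the importer of biotin and pantothenate, and Slc19a1, the reduced folate carrier. Slc5a6 had 11.4 CPM in KO cells and 7.12 CPM in WT cells, a ratio of 1.61. Of the exon bases of Slc5a6, 9.92% are shared with Atraid, a protein-coding gene of the opposite strand, so this value is uncertain. Slc19a1 had 52.8 CPM in KO cells and 46.1 CPM in WT cells, and its log2 ratio of 0.20 was the smallest of the 34 higher carriers. Folate carriers at both membranes were therefore higher, the mitochondrial one by more. The group was put together with the values known, so its count is a description.

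Of the carriers of the ER and Golgi that supply the making of glycans, Slc35b3 was lower and the others described here were higher. The 4 nucleotide sugar carriers also lay above the median of all rows (0.33), 3 of them close to it. Slc35a1, which brings CMP-sialic acid into the Golgi, had 28.9 CPM in KO cells and 22.8 CPM in WT cells, a log2 ratio of 0.34. The GDP-fucose carrier Slc35c1 had 45.9 CPM in KO cells and 36.1 CPM in WT cells, a log2 ratio of 0.35, and Slc35a3, which carries UDP-N-acetylglucosamine, had 72.1 CPM in KO cells and 55.7 CPM in WT cells, a log2 ratio of 0.37. These 3 ratios lay close together at levels from 22.8 to 72.1 CPM. Slc35a5, a relative placed among the nucleotide sugar carriers by sequence, had 12.3 CPM in KO cells and 7.64 CPM in WT cells, a ratio of 1.61. Slc33a1, which brings acetyl-CoA into the ER for the acetylation of glycans and proteins, had 36.5 CPM in KO cells and 22.7 CPM in WT cells, also a ratio of 1.61. An antisense transcript, Gm26850, covers 32.0% of the exon bases of Slc33a1, and whether the counting used strand is not given in the sources used here. Sulfation drew on carriers of opposite direction. Slc26a2, the sulfate importer of the cell surface, had 45.1 CPM in KO cells and 35.5 CPM in WT cells, a log2 ratio of 0.34, and Slc35b3, which moves the activated sulfate donor PAPS into the Golgi, had a log2 ratio of -0.51, with 32.7 CPM in KO cells and 46.4 CPM in WT cells. Slc35b3 was the only one of the 5 Slc35 genes in the table that was lower.

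Among the carriers of inorganic ions, Slc20a1, the sodium-phosphate importer PiT1, had 97.7 CPM in KO cells and 121 CPM in WT cells, a log2 ratio of -0.30. Slc9b2, a sodium-proton exchanger, had 13.3 CPM in KO cells and 8.64 CPM in WT cells, a ratio of 1.54. It is the nearest neighbour of another member along the genome, 0.48 Mb from Slc39a8 on chromosome 3, and the log2 ratios of this pair, 0.62 and -0.39, were opposite in sign. Slc20a1 shares 452 exon bases with 9830144P21Rik, a transcript of the opposite strand that was itself a row, with 3.05 CPM in KO cells and 5.92 CPM in WT cells. Of the remaining carriers, Slc27a4, a fatty acid transport protein, had 18.5 CPM in KO cells and 14.2 CPM in WT cells, a log2 ratio of 0.39. Slc29a3, the nucleoside carrier of lysosomes, had 66.2 CPM in KO cells and 55.6 CPM in WT cells, a log2 ratio of 0.25. Slc66a2, a PQ-loop protein, had 4.85 CPM in KO cells and 3.27 CPM in WT cells, a log2 ratio of 0.57.

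Slc18a2 had the highest ratio of all carriers and the lowest level. It encodes VMAT2, which loads histamine, serotonin and other monoamines into vesicles in neurons, mast cells, basophils and platelets. Its mean was 3.00 CPM in KO cells and 0.885 CPM in WT cells, a ratio of 3.39, and it held rank 33 from the top among all rows. With 1 CPM added to both means its log2 ratio was 1.09, and with 5 CPM it was 0.44. With so low a mean in WT cells, Slc18a2 could pass the minimum total only through a higher mean in KO cells. Its high ratio is therefore partly a condition for having a row. The same holds for Mcpt1, Mcpt2 and Lyz2 below, whose means in WT cells were also low. Of 10 listed markers of mast cells and basophils, 2 were rows, the proteases Mcpt1 and Mcpt2, and both were higher, with a summed level of 19.0 CPM in KO cells and 1.47 CPM in WT cells. Cpa3, Kit, Fcer1a and Ms4a2 were among the 8 that were not rows, which leaves them without a value here. Of 8 macrophage and monocyte markers only Lyz2 was a row, with 45.4 CPM in KO cells and 0.310 CPM in WT cells, and of 8 dendritic cell markers 6 were rows, 5 higher and Ccr7 lower. The part of other cell types in the value of Slc18a2, or of the lysosomal and endosomal carriers Slc31a2 and Slc29a3, was not tested.

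Sorted by the membrane where each carrier usually works, the members at the cell surface differed from those inside the cell in how their sums compared. This difference rested on Slc38a2 and Slc6a6. The 13 plasma membrane carriers had a summed level of 897 CPM in KO cells and 902 CPM in WT cells, a ratio of 1.00, with 9 genes higher and 4 lower. Of that sum, Slc38a2 and Slc6a6 together made up 362 CPM in KO cells and 466 CPM in WT cells. Without them the sum was higher in KO cells, as it was for the carriers inside the cell. Together with Slc20a1 and Slc39a8 they are the 4 lower genes. The other 27 carriers had 1088 CPM in KO cells and 875 CPM in WT cells, a ratio of 1.24, and 25 of them were higher, Slc25a28 and Slc35b3 being lower. Of the 13 carriers of ER and Golgi 12 were higher, of the 9 of mitochondria and peroxisomes 8, and of the 4 of lysosomes, endosomes and vesicles all 4. Relative to the median of all rows, 7 of 13 carriers of the plasma membrane, 9 of 13 of ER and Golgi, 6 of 9 of mitochondria and peroxisomes and 3 of 4 of lysosomes, endosomes and vesicles were above it. The median log2 ratio was 0.34 at the plasma membrane and 0.40 elsewhere, so the typical gene differed less than the sums. Many carriers work at more than 1 membrane, and this sorting was made with the values known, so it was not tested.

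**Figure D5:**
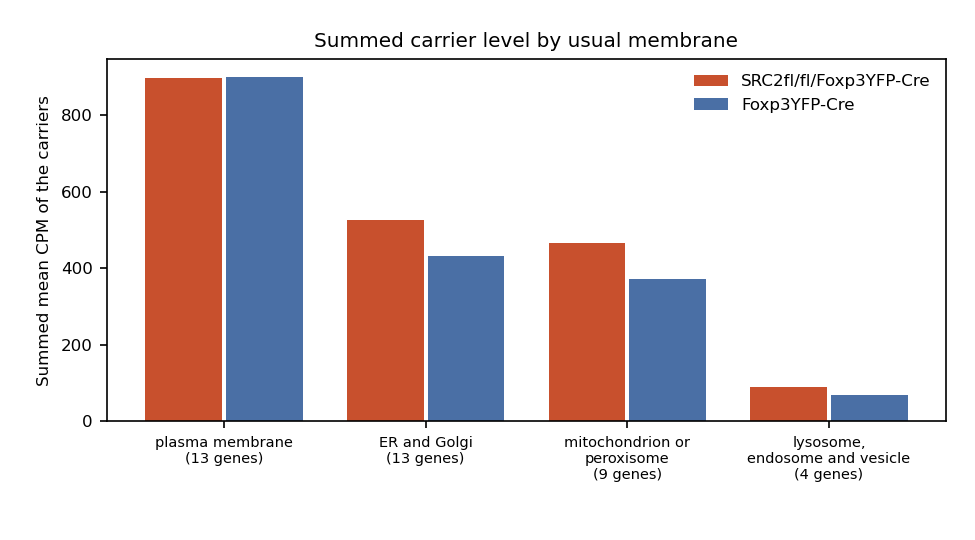
Summed authors' mean CPM of the solute carriers by the membrane where they usually work, with SRC2fl/fl/Foxp3YFP-Cre left of Foxp3YFP-Cre and the number of genes in brackets (Slc66a2 is not assigned). The plasma membrane bars are nearly level at 897 and 902 CPM, of which Slc38a2 and Slc6a6 make up 362 and 466 CPM. The SRC2fl/fl/Foxp3YFP-Cre bar is the taller in the other 3 groups.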

How the data were processed

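RNA-seq was done on 6 libraries, 3 per genotype. In Partek Flow, the authors mapped reads to GRCm38, counted them per gene by the Partek E/M method, scaled them to CPM plus a small constant, and ran Partek GSA between genotypes. The sources used here do not give aligner, annotation, strand setting or depth. The deposited CPM values are 1 mean per genotype. A deposited column named as total counts is a signal in CPM, not raw counts: the sum of both means times 3 gives it in 2387 of 2387 rows, within a relative difference of 1e-06. The deposited p-value column was read only to learn how rows were chosen (2387 of 2387 below 0.05), and the deposited adjusted p-values, ratios and fold changes were not used.

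Log2 ratios were computed from the 2 mean columns with no offset. Without values per library no test was made, and the 1.5-fold limit stands in for a call. By the rule for named genes, both means were given for carriers past 1.5-fold, those of at least 100 CPM, and their partners or close paralogs. The means of the other members were added after their values were seen, and 1 member, kept in the counts and sums, is not reported here by name. Members, lists and groups were chosen with earlier results of these data known. Substrate and membrane were assigned by hand from textbook knowledge. Exon lengths, positions and overlaps came from GENCODE M21 on GRCm38, where 39 members matched by symbol and Slc66a2 by its synonym Pqlc1, and promoters from RefSeq on GRCm38.p6. Python 3.11.15 with pandas 2.3.3, numpy 2.4.6, scipy 1.17.1 and matplotlib 3.10.9 was used, and the ratio step was tested on simulated data. Alternatives were offsets of 1 and 5 CPM, a minimum of 5 CPM and centring on the median of all rows.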

Additional observations from a re-analysis of the deposited data

How the results depend on the processing

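The ratios of all rows are not centred on 0. With log2 ratios centred on the median of all rows (0.33), 26 carriers were higher and 14 lower, 65.0% higher, and among all rows 1193 of 2387 were higher (34 of 40 carriers and 69.2% of all rows as deposited), the median was 0.051, and 2 carriers passed 1.5-fold higher and 5 lower. Centred in this way, 6.37% of all rows passed 1.5-fold higher. The share of all rows past 1.5-fold lower was not counted. After centring, the lower quartile of all rows (-0.30 as deposited) itself lay past 1.5-fold lower, while that of the carriers (0.27 as deposited) did not. The 5 lower carriers are therefore not read as a lean of the carriers toward lower values. With 5 CPM added, 1 of 40 carriers passed 1.5-fold higher, beside 6.37% of all rows, and the median was 0.31. With 1 CPM added, 6 of 40 passed, beside 14.6% of all rows, and the median was 0.37. With rows under 5 CPM in both genotypes left out, 38 carriers remained in the count. Of these, 32 were higher and 6 lower, beside 70.3% higher among the rows left. Past 1.5-fold higher were 8 of the 38, beside 15.6% of the rows left, and the carriers' median was 0.37. Offsets changed no direction. No paired analysis was possible because the deposited values are genotype means that carry no replicate numbers, and leaving out a library was not possible for the same reason.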

Other observations

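Other transport proteins in the table were few. Of 7 ATP-driven ion pumps and flippases 6 were higher, with log2 ratios of 0.18 to 0.47, beside 69.2% higher among all rows. Of the 7, 2 lay above the median of all rows (0.33), and their own median was 0.28. The 6 higher were 5 subunits of the vacuolar proton pump (Atp6v1a, Atp6v1d, Atp6v0c, Atp6v1e1 and Atp6v0b) and Atp6v0c-ps2, by its symbol a pseudogene of Atp6v0c, so both values are uncertain. The exception was Atp1b1, a subunit of the sodium-potassium pump, with 119 CPM in KO cells and 197 CPM in WT cells, a log2 ratio of -0.72.

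Ion channels were higher in 5 of 6 cases, 3 of them above the median of all rows, and their median was 0.31. Kcnn4, the calcium-activated potassium channel of T cells, had 149 CPM in KO cells and 117 CPM in WT cells, and Hvcn1, a proton channel, had a log2 ratio of 0.56. Mcoln1, a lysosomal cation channel, was lower, with a log2 ratio of -0.37. Of 4 ABC transporters, Abcg1, a sterol exporter, was lower with a log2 ratio of -0.61 and the other 3 were higher, 2 of them above the median of all rows. Among 6 carriers of the SLC series that have other symbols, Mfsd4a with a log2 ratio of -0.56 and Npc1, which moves cholesterol out of lysosomes, with -0.24 were lower, and Magt1, Tmem165, Flvcr1 and Mfsd2a were higher, with 0.21 to 0.65, of which Mfsd2a alone lay above the median of all rows. All these rows passed the same P value filter, and none was tested.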
